A study of Homo sapiens with 4 samples.

Results

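The 10 genes described here are KMT2A and AFF1, which the translocation t(4;11) joins, and 8 partners of the fusion protein, namely AFF4, MEN1, PSIP1, DOT1L, MLLT1, MLLT3, ELL and CDK9. They were chosen by name, as every probe set that carries 1 of these symbols, which gave 11 of the 32968 probe sets on the array (2 for KMT2A, 1 for each other gene) and 10 of the 18377 genes measured. Total RNA came from 4 human precursor B-cell acute lymphoblastic leukaemia (ALL) lines, with 1 Affymetrix whole-transcript array per line. RS4;11 and SEM carry t(4;11) and are called the translocation lines, and NALM6 and REH lack it. All lines were grown to sub-confluency in RPMI medium with fetal bovine serum, and the labels name no further treatment. Each line is the descendant of 1 patient's leukaemia with further lesions of its own. REH is known to carry the ETV6-RUNX1 fusion and NALM6 a DUX4 rearrangement, so that the group contrast is one between pairs of unlike lines.

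KMT2A (also MLL) encodes a methyltransferase of histone H3K4 that keeps HOX genes active in blood stem cells. In t(4;11) its N-terminal part, which binds chromatin through menin (MEN1) and LEDGF (PSIP1), is fused to the C-terminal part of AFF1, a scaffold of the super elongation complex. The fusion protein brings AFF4, MLLT1 or MLLT3, ELL and the kinase CDK9, which releases paused RNA polymerase II, to its target genes, and DOT1L, the methyltransferase of the mark H3K79, is recruited through MLLT1 and MLLT3. The comparison asks whether the transcripts of this machinery differ between lines with and without the rearranged gene.

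Values are log2 intensities processed by the submitters, and a difference of 1 means a 2-fold change. The array medians lay between 6.40 and 6.46. Of the precursor B-cell marker genes, 12 of 14 were measured, with PAX5 between 11.61 and 11.90 and CD22 between 11.10 and 11.65 in the 4 lines. Only 6 of the 12 reached the median of all gene values (6.75) in every line. The stem cell marker CD34 (4.73 to 4.84) lay below it in all lines. DNTT (5.11), CD24 (6.33) and RAG1 (6.33) lay below it in SEM, and VPREB1 (5.51) in REH. In 7 of the 12 markers both translocation lines lay below NALM6 and REH, against 19.8% of all genes. MME, the gene of CD10, fell, at 5.54 in RS4;11 and 5.34 in SEM, against 12.48 in NALM6 and 12.56 in REH (limma adjusted p = 0.0212). The part of these markers in the results below was not tested. Of 14 markers of T, myeloid, erythroid, stromal and epithelial cells, 11 stayed below the median of all gene values (6.75) in every line. The exceptions were MPO (7.57 in REH), CSF1R (7.69 in SEM) and LYZ (up to 9.65 in NALM6). In RNA of whole cultures, fewer cells of a type and less RNA per cell cannot be told apart.

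The promoters of KMT2A and AFF1 are shown because in a t(4;11) cell the KMT2A promoter drives the KMT2A-AFF1 fusion gene and an AFF1 promoter the reciprocal one, while the normal copies keep theirs. The sequences are the 250 bases before each annotated start, from RefSeq on build GRCh38.p14, plus strand, with GC boxes (GGGCGG or its complement CCGCCC, the motif of SP-family factors) in capitals. AFF1 has 2 annotated starts.
KMT2A, chr11:118436242-118436491: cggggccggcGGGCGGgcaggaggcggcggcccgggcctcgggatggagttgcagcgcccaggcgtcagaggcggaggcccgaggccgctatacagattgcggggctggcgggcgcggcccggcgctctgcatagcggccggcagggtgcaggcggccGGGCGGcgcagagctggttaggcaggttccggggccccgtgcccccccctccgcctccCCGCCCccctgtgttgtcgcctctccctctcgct
AFF1 first start, chr4:86934761-86935010: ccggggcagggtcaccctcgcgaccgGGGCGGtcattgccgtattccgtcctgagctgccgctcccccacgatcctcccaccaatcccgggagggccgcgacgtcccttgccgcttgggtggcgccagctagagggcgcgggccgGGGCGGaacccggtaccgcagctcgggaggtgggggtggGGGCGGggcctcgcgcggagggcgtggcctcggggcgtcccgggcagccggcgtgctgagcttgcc
AFF1 second start, chr4:87007021-87007270: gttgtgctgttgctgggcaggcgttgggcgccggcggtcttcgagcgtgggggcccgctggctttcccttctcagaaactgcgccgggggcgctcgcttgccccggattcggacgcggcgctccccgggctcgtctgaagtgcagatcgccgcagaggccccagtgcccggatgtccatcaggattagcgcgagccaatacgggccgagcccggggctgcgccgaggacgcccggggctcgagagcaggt
The KMT2A promoter held 3 GC boxes and 31 CpG dinucleotides. The first AFF1 promoter held 3 GC boxes and 32 CpG dinucleotides, and the second 0 and 31. A GC box on either strand was in 42.6% of the 35116 promoters listed, and the median number of CpG dinucleotides was 11. The ETS-type motif CCGGAAG, or CTTCCGG, was in none of these 3 windows and in 8.52% of all promoters. All 3 are therefore CpG-rich windows. The array values below do not tell which promoter a transcript came from.

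KMT2A (probe set 7944223) was at 11.12 in RS4;11 and 10.61 in SEM, against 10.72 in NALM6 and 11.01 in REH. The translocation lines were thus the highest and the lowest of the 4, with the lines lacking t(4;11) between them. The group means were 10.86 ± 0.35 in the translocation lines and 10.86 ± 0.20 in NALM6 and REH (SD, n = 2 lines each), and the difference was 0.00 on the log2 scale (SE 0.24, 95% interval -0.72 to 0.72, limma adjusted p = 1). The interval leaves room for differences of either sign, so that equality of the groups is not shown.

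The second KMT2A probe set (7944262), which the platform annotation ties to 1 cDNA record against 5 for the main one, was at 7.84 in RS4;11 and 7.58 in SEM, against 7.71 in NALM6 and 8.13 in REH. SEM was again the lowest line, but here REH was the highest. The group difference was -0.21 (SE 0.21, limma adjusted p = 0.785). The probe sets thus shared the low end of their order and not the high end. The positions of their probes relative to the breakpoint were not used here, so that neither probe set can be read as fusion or normal transcript. One of the cDNA records is listed for the main KMT2A probe set and for that of AFF1.

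AFF1 (probe set 8096224) was at 11.69 in RS4;11 and 10.89 in SEM, against 11.22 in NALM6 and 11.30 in REH. RS4;11 was again the highest and SEM the lowest line, and NALM6 minus REH was -0.08. The group means were 11.29 ± 0.57 in the translocation lines and 11.26 ± 0.06 in NALM6 and REH, a difference of 0.03 (SE 0.32, 95% interval -0.944 to 1.002, limma adjusted p = 0.985). The sign of this difference turned under other scalings of the arrays. The spread of AFF1 lay between the translocation lines, with 1.75-fold more signal in RS4;11 than in SEM. AFF1 was the 1 gene of the 10 past 1.5-fold in this pair, a size reached by 12.4% of all genes. With 1 array per line this difference has no test.

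Genes were ranked by how near their profile over the 4 lines, each centred on its own mean, lay to those of KMT2A and AFF1. The nearest to AFF1 of all 18377 genes were NPRL3, EAF2 and XKR4, at Euclidean distances of 0.02, 0.03 and 0.04 on the log2 scale. EAF2, which encodes an ELL-associated factor, was at 10.81 in RS4;11 and 9.97 in SEM, against 10.30 in NALM6 and 10.40 in REH. This is the same order of lines as for AFF1, and 7 genes lay within a distance of 0.1 of it. The nearest to KMT2A were RSBN1L (0.05), LILRA3 (0.06) and RALGDS (0.06), with 13 genes within 0.1. XKR4 (at most 6.36) and LILRA3 (at most 5.94) lay below the median of all gene values (6.75) in every line. KMT2A and AFF1 lay 0.26 apart. Nearer to KMT2A than AFF1 was were 537 genes (2.92% of all genes), and nearer to AFF1 than KMT2A was were 116. With 4 lines, near profiles are a description, and the pattern highest in RS4;11 and lowest in SEM was that of 6.62% of all genes.

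**Figure D1:**
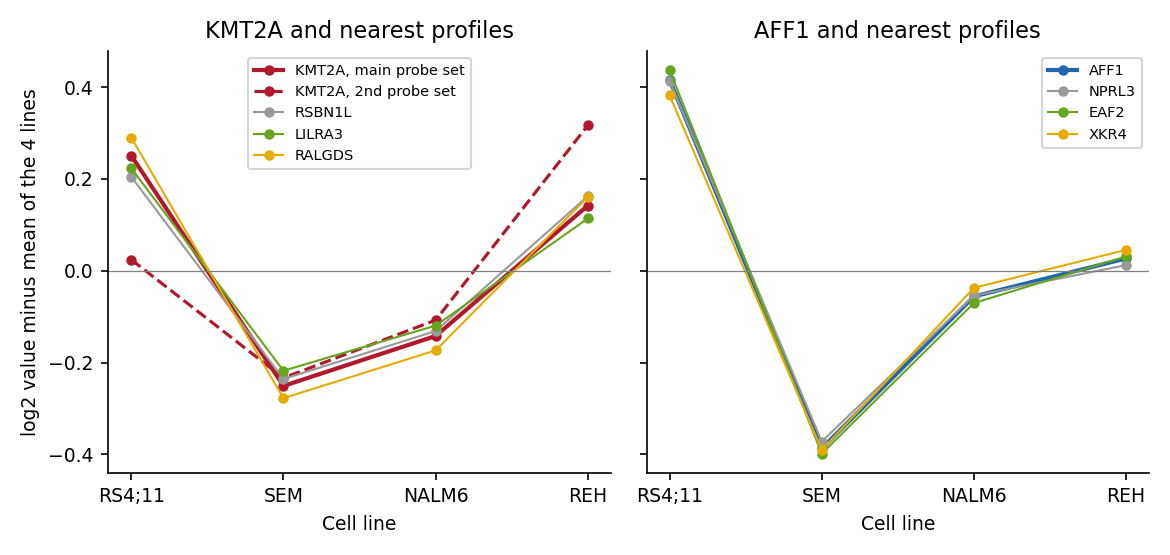
Profiles over the 4 lines (x axis) of the KMT2A probe sets (left) and of AFF1 (right) with the 3 nearest genes of each, as log2 value minus the gene's own mean of the 4 lines (y axis, 1 array per point). The main KMT2A probe set and AFF1 both run from a high point in RS4;11 to a low point in SEM, while the second KMT2A probe set has its high point in REH.

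MEN1 encodes menin, the adaptor that holds the N-terminus of KMT2A, fused or not, on chromatin and the target of menin inhibitors. It was at 8.60 in RS4;11 and 8.51 in SEM, against 9.27 in NALM6 and 8.82 in REH. Both translocation lines lay below both others, and NALM6 lay 0.45 above REH. The mean was 8.55 ± 0.07 in the translocation lines and 9.05 ± 0.32 in NALM6 and REH, a 0.711-fold ratio (log2 difference -0.49, SE 0.20, limma unadjusted p = 0.0804, adjusted p = 0.603). The difference did not pass the adjustment. It was -0.26 without NALM6 (adjusted p = 0.519) and -0.72 without REH (unadjusted p = 0.0172, adjusted p = 0.37).

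PSIP1 encodes LEDGF, which reads the methylated histone mark H3K36 and binds menin and KMT2A together. It was at 9.65 in RS4;11 and 9.97 in SEM, against 9.82 in NALM6 and 10.03 in REH. The groups overlapped, and PSIP1 was the 1 gene of the set lowest in RS4;11. Its difference was -0.12 (SE 0.17, limma adjusted p = 0.848).

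**Figure D2:**
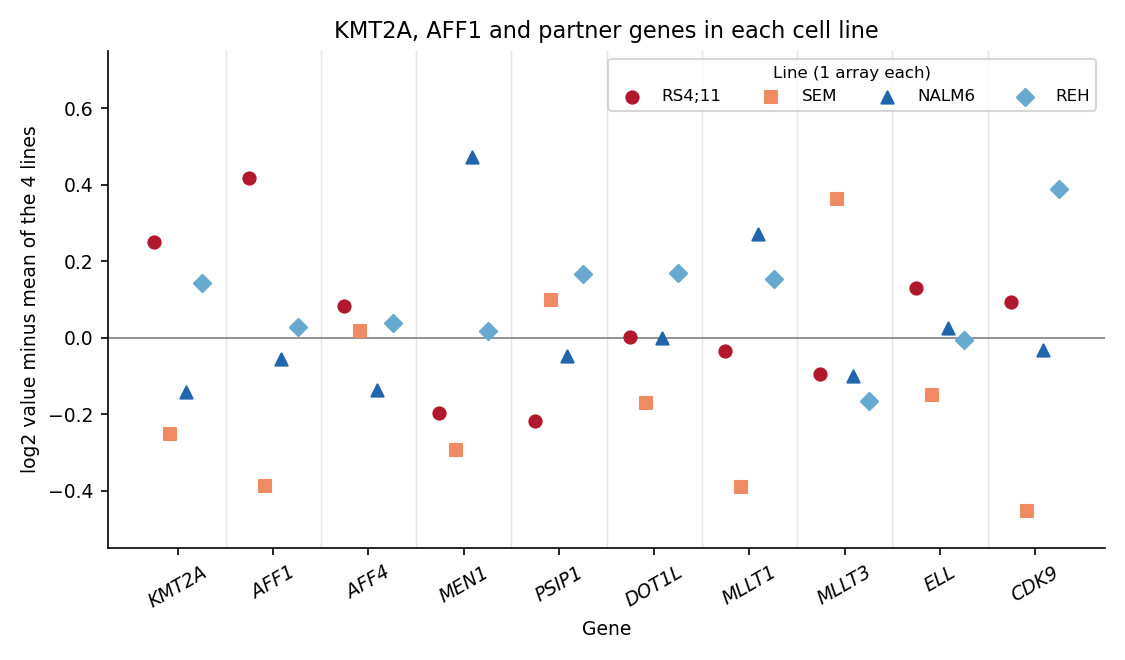
Log2 value minus the gene's own mean of the 4 lines (y axis) for each of the 10 genes (x axis), with 1 point per line (1 array each). SEM (orange squares) is the lowest point in 7 genes and the highest in MLLT3, and only MEN1, MLLT1 and MLLT3 have both translocation lines on one side of NALM6 and REH.

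MLLT1 and MLLT3 encode ENL and AF9, paralogous readers of acylated histones through their YEATS domains that link the elongation complex with DOT1L, and both are themselves fusion partners of KMT2A. MLLT1 was at 9.27 in RS4;11 and 8.92 in SEM, against 9.58 in NALM6 and 9.46 in REH. Both translocation lines lay below both others. The means were 9.09 ± 0.25 in the translocation lines and 9.52 ± 0.08 in NALM6 and REH, a 0.746-fold ratio (difference -0.42, SE 0.17, limma unadjusted p = 0.0764, adjusted p = 0.597). The size depended on the line left out, at -0.25 without SEM (adjusted p = 0.895) and -0.60 without RS4;11 (unadjusted p = 0.0393, adjusted p = 0.553).

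MLLT3 was at 5.006 in RS4;11 and 5.465 in SEM, against 5.0003 in NALM6 and 4.936 in REH. It was the only gene of the 10 whose highest value stayed below the median of all gene values. Its values other than that of SEM lay near the lower quartiles of the arrays (4.97 to 5.02). RS4;11 minus SEM was -0.46, while RS4;11 and NALM6 were nearly equal. The groups did not overlap by this margin alone, and they overlapped after repeated quantile normalization and after centring of the arrays. The difference was 0.27 (SE 0.20, limma adjusted p = 0.744), and it was 0.04 without SEM and 0.50 without RS4;11.

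AFF4, the paralogue of AFF1 and the main scaffold of the super elongation complex, was at 10.36 in RS4;11 and 10.30 in SEM, against 10.14 in NALM6 and 10.32 in REH. These values span 0.22, the narrowest range of the 10 genes. The difference was 0.10 (SE 0.11, limma adjusted p = 0.805), and it was 0.01 without NALM6 and 0.19 without REH. ELL, an elongation factor that suppresses pausing of RNA polymerase II and another fusion partner of KMT2A, was at 7.72 in RS4;11 and 7.44 in SEM, against 7.61 in NALM6 and 7.58 in REH. NALM6 and REH lay between the translocation lines, as for AFF1. The difference was -0.02 (SE 0.14, limma adjusted p = 0.973).

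CDK9, the catalytic subunit of the elongation factor P-TEFb, was at 10.93 in RS4;11 and 10.39 in SEM, against 10.81 in NALM6 and 11.23 in REH. SEM was the lowest and REH the highest line, and the range of 0.84 was the widest of the 10 genes. RS4;11 lay between NALM6 and REH, so that the groups overlapped. The means were 10.66 ± 0.39 in the translocation lines and 11.02 ± 0.30 in NALM6 and REH, a difference of -0.36 (SE 0.28, limma adjusted p = 0.748). This difference was -0.08 without SEM and -0.63 without RS4;11.

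DOT1L, the methyltransferase of H3K79, was at 9.35 in RS4;11 and 9.18 in SEM, against 9.35 in NALM6 and 9.52 in REH. RS4;11 and NALM6 had almost the same value, with SEM below and REH above them. The groups overlapped by this margin alone, and both translocation lines lay below both others after repeated quantile normalization and after centring of the arrays. The difference was -0.17 (SE 0.13, limma adjusted p = 0.744).

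**Figure D3:**
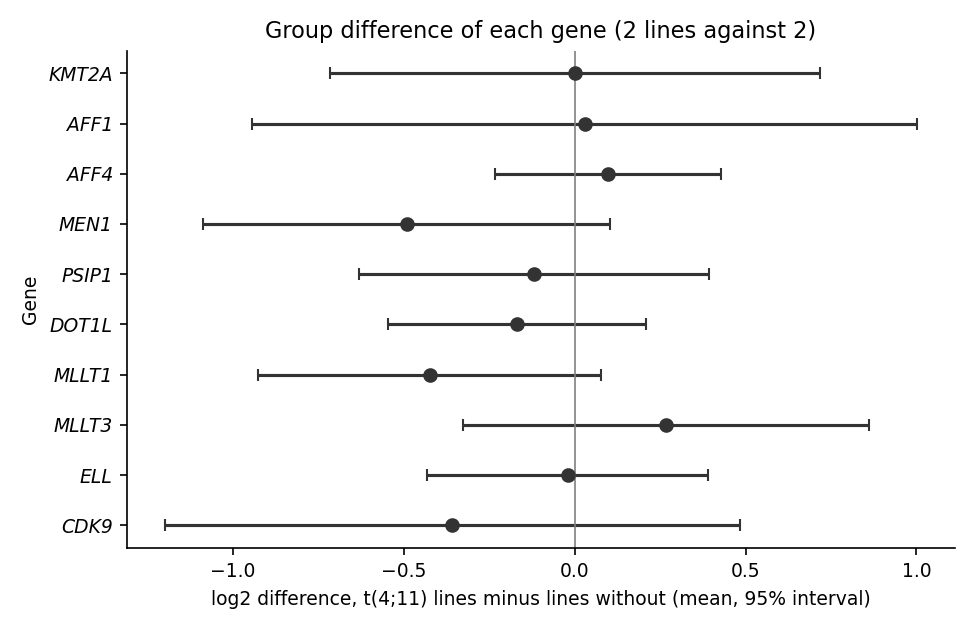
Log2 difference of the translocation lines minus the lines without t(4;11) (x axis) for each of the 10 genes (y axis), with points for the mean difference and bars for limma's 95% interval (2 lines against 2). All 10 intervals include 0, and those of MEN1 (-1.09 to 0.10) and MLLT1 (-0.92 to 0.08) reach least far to the positive side.

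Over the set, 0 of 10 genes passed limma's adjusted threshold of 0.05, against 0.0218% of all genes (0.0109% in each direction). An unadjusted p under 0.05 was found in 0 of 10, against 9.39% of all genes (4.6% higher and 4.79% lower). The median difference was -0.07 over the 10 genes and 0.01 over all genes, and the median size of a difference, sign aside, was 0.144 over the 10 genes and 0.152 over all genes. In 3 of 10 genes, both translocation lines lay above (1 gene) or below (2 genes) NALM6 and REH, against 42.8% of all genes (23% higher and 19.8% lower). A two-sided exact permutation test of 2 lines against 2 cannot go below p = 0.333, the value of MEN1, MLLT1 and MLLT3. The share of genes without overlap was thus no larger than the background.

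The range over the 4 lines had a median of 0.515 over the 10 genes and 0.385 over all genes, and it reached 2-fold in 0 of 10 against 19.3% of all genes. The 2 sets differ in signal level, since all lines reached the median of all gene values in 9 of 10 genes, against 8189 of 18377. The part of signal level in these ranges was not tested. NALM6 and REH differed by 1.5-fold in 0 of 10 genes, against 16.8% of all genes. SEM was the lowest line in 7 of the 10 genes (KMT2A, AFF1, MEN1, DOT1L, MLLT1, ELL and CDK9), against 24.5% of all genes. It was also the lowest line in 9 of the 12 precursor B-cell markers and in 5 of the other 8 genes of the super elongation complex. The further lists described below did not all share this. SEM was lowest in 4 of 17 COMPASS family genes, 4 of 13 genes of P-TEFb control and pausing and 1 of 6 of the PAF1 complex. It was lowest in 3 of 6 genes around DOT1L, 7 of 40 other fusion partners and 1 of 16 fusion targets. RS4;11 exceeded SEM in 8 of 10 genes, against 53.8% of all genes. The order of lines was noticed in the data, no test was made of it, and it rests on the SEM array, which has no replicate.

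The genes around this set were taken in lists by complex. The other members of the COMPASS family, which holds KMT2A, its sister methyltransferases and their shared core, numbered 17, and 0 passed the adjusted threshold. An unadjusted p under 0.05 in limma was found in 1 of 17, against 9.39% of all genes. Without overlap of the groups, 3 genes were higher and 2 lower, together 29.4% of the list, against 42.8% of all genes. Of the core subunits that every KMT2 enzyme needs, WDR5, RBBP5, ASH2L and DPY30, the differences were 0.18, -0.13, -0.12 and -0.33. The largest positive differences were those of KDM6A, the H3K27 demethylase of the KMT2C and KMT2D complexes, and SETD1B, and the largest negative ones those of DPY30 and HCFC2. KDM6A was at 10.61 in RS4;11 and 10.61 in SEM, against 9.69 in NALM6 and 10.09 in REH (difference 0.72, SE 0.18, limma unadjusted p = 0.0217, adjusted p = 0.445). SETD1B differed by 0.18 and HCFC2 by -0.30. The median of the list was 0.00, against 0.01 over all genes.

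Of the other 8 genes of the super elongation complex, 0 passed the adjusted threshold. At an unadjusted p under 0.05 in limma, 0 were higher and 1 lower, against 4.6% and 4.79% of all genes. These 8 genes held the widest line-to-line steps of the lists built on a complex. AFF2, a paralogue of AFF1, was at 4.98 in RS4;11 and 5.06 in SEM, against 5.03 in NALM6 and 9.22 in REH, so that REH alone stood high (difference -2.10, SE 1.63, limma adjusted p = 0.747). AFF3, a further paralogue, was at 10.17 in RS4;11 and 7.44 in SEM, against 10.69 in NALM6 and 8.17 in REH, which splits each group (difference -0.63, SE 1.44, limma adjusted p = 0.915). ELL3, a paralogue of ELL known from testis and B cells, was at 9.30 in RS4;11 and 7.48 in SEM, against 6.96 in NALM6 and 6.93 in REH (difference 1.45, SE 0.71, limma adjusted p = 0.661). In ELL2, which acts in immunoglobulin processing of plasma cells, the difference was 0.30 (SE 0.72). Ranges of 2-fold or more were found in these 4 paralogues and in none of CCNT1, CCNT2, EAF1 and EAF2. The paralogues AFF1, AFF4 and ELL, by contrast, had ranges of 0.80, 0.22 and 0.28. CCNT2, a cyclin partner of CDK9, was at 10.46 in RS4;11 and 10.36 in SEM, against 10.73 in NALM6 and 10.84 in REH (difference -0.38, SE 0.10, limma unadjusted p = 0.0297, adjusted p = 0.481), and was named after its value was seen.

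Of the genes that control P-TEFb and pausing, 13 of 16 were measured and 0 passed the adjusted threshold. With an unadjusted p under 0.05 in limma, 1 was higher and 1 lower, against 4.6% and 4.79% of all genes. HEXIM1 and HEXIM2, inhibitors that hold P-TEFb inactive in the 7SK particle, lay on opposite sides. HEXIM1 was at 7.29 in RS4;11 and 8.25 in SEM, against 8.50 in NALM6 and 8.57 in REH (difference -0.77, SE 0.38, limma adjusted p = 0.664), so that most of it came from RS4;11. HEXIM2 was at 7.67 in RS4;11 and 7.45 in SEM, against 7.07 in NALM6 and 7.19 in REH (difference 0.43, SE 0.13, limma unadjusted p = 0.0383, adjusted p = 0.503). CDK13, a further elongation kinase, differed by -0.44 (SE 0.09, limma unadjusted p = 0.0143, adjusted p = 0.408), and NELFCD, a subunit of the pausing factor NELF, by 0.21. In both genes of the NELF complex otherwise measured, NELFA and NELFB, the differences were -0.01 and 0.11.

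The PAF1 complex, which binds the N-terminal part of KMT2A on chromatin, had 6 of 6 genes measured. Of these, 0 passed the adjusted threshold and 0 had an unadjusted p under 0.05 in limma, against 9.39% of all genes. The widest differences in this complex were 0.37 for CDC73 and -0.22 for CTR9, with LEO1 at 0.08 and PAF1 itself at -0.15. Around DOT1L and MLLT1 6 of 7 genes were measured and 0 passed. Here 1 was higher and 0 lower at an unadjusted p under 0.05 in limma, against 4.6% and 4.79% of all genes. SKP1, a subunit of ubiquitin ligases also found with DOT1L, was at 9.82 in RS4;11 and 9.81 in SEM, against 9.23 in NALM6 and 9.30 in REH (difference 0.55, SE 0.09, limma unadjusted p = 0.00599, adjusted p = 0.327). MLLT10, which encodes the DOT1L cofactor AF10, was at 9.92 in RS4;11 and 9.74 in SEM, against 10.18 in NALM6 and 10.11 in REH (difference -0.32, SE 0.11, limma unadjusted p = 0.0603, adjusted p = 0.561). MLLT10 was thus on the same side as MLLT1, while MLLT3 (0.27) and MLLT6 (0.06) lay on the other. CTNNB1 differed by 0.49 and BCOR, a corepressor that binds MLLT3, by -0.13.

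Genes known as other fusion partners of KMT2A are of many kinds, and 40 of 44 were measured. The adjusted threshold was passed by 0. An unadjusted p under 0.05 in limma was found in 1 gene higher and 2 lower, against 4.6% and 4.79% of all genes. Without overlap, 7 genes were higher and 7 lower, together 35% of the list, against 42.8% of all genes. MAML2, a Notch coactivator, was at 6.82 in RS4;11 and 6.44 in SEM, against 9.77 in NALM6 and 9.15 in REH (difference -2.82, SE 0.29, limma unadjusted p = 0.00148, adjusted p = 0.217). TET1, a 5-methylcytosine dioxygenase, was at 5.41 in RS4;11 and 4.83 in SEM, against 7.20 in NALM6 and 8.05 in REH (difference -2.51, SE 0.41, limma unadjusted p = 0.00624, adjusted p = 0.327). Among the genes higher in the translocation lines, MYO1F, a myosin of blood cells, was at 8.23 in RS4;11 and 9.11 in SEM, against 7.83 in NALM6 and 5.87 in REH, with REH low (difference 1.82, SE 0.83, limma adjusted p = 0.638). The median of the list was 0.02.

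**Figure D4:**
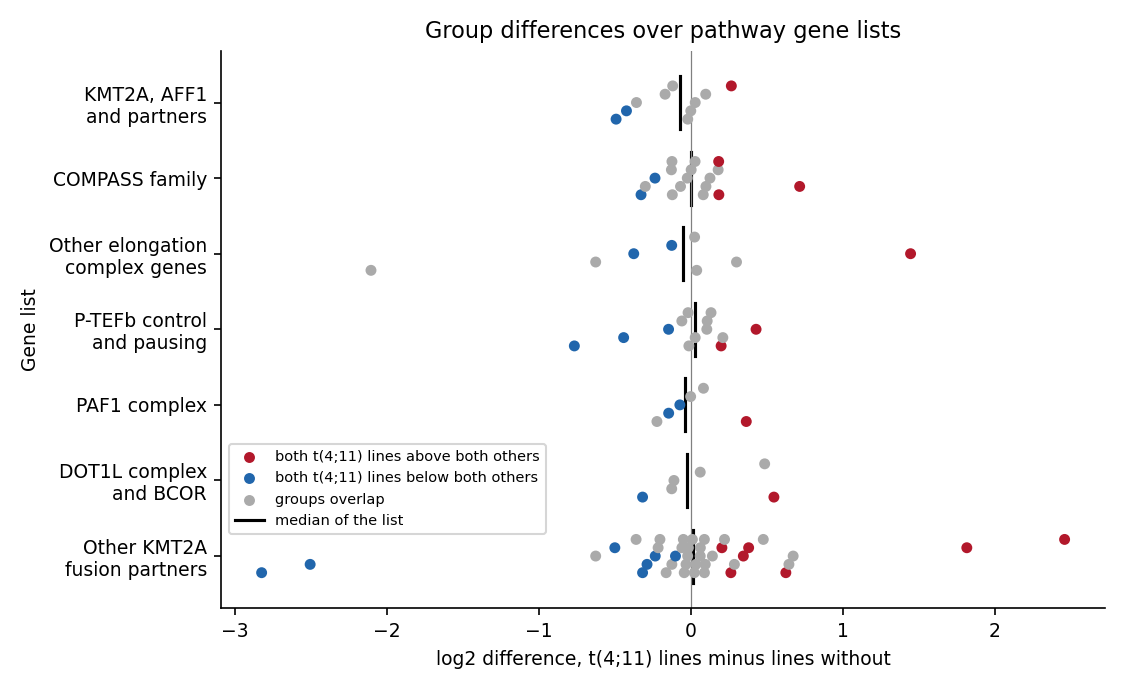
Log2 difference of the translocation lines minus the lines without t(4;11) (x axis) of every measured gene in 7 lists (y axis, 1 point per gene, spread vertically for legibility), coloured by whether the groups overlap, with a bar at each list's median. List medians lie between -0.07 and 0.03, and differences of 2-fold or more are those of 2 other elongation complex genes and 4 other fusion partners.

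Genes known to be bound and activated by KMT2A fusions were set beside the machinery. Of 22 listed, 16 were measured. HOXA3, HOXA5, HOXA7, HOXA9, HOXA10 and HMGA2 were not, since no probe set carried their symbol alone and probe sets with several symbols were not used. The list as measured therefore holds no HOXA gene. Of the 16, 10 genes were higher and 0 lower without overlap of the groups (23% and 19.8% of all genes). The median difference was 0.71, against 0.01 over all genes. MEIS1, a homeobox cofactor, rose and was the 1 gene of the list to pass. It was at 11.30 in RS4;11 and 11.20 in SEM, against 4.92 in NALM6 and 4.82 in REH (difference 6.37, SE 0.10, limma adjusted p = 0.0212). The list was drawn from knowledge of such leukaemias and its shift was already known from these arrays. Among the 10 machinery genes the largest size of a difference was 0.492, that of MEN1.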

How the data were processed

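Per the labels' protocols, total RNA was converted to cDNA, amplified and labelled with biotin by a whole-transcript kit, with 1 array per cell line. The deposited log2 values per probe set came from RMA and Partek, per the submitters' processing notes, which state no versions or roles. The log2 scale was inferred from the values. RMA gives no detection call and evens out array-wide differences, and the number of arrays limits the precision.

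Probe sets with 1 symbol in the platform annotation (19310) were named, 1752 with several symbols were not (0 of them list one of the 10 genes), and a gene with several took the probe set of highest mean over the lines. Intervals, SEs and two-sided p-values come from limma 3.58.1 (lmFit and eBayes, R 4.3.3, no covariates) over all 18377 genes, or over all 19310 probe sets for the second KMT2A probe set, with Benjamini-Hochberg adjustment and 2 residual and 1.34 prior degrees of freedom. The replicate is the line, so that p-values rest on the spread between lines, to which culture and array add. The labels name no batch. The fit was tested on simulated data.

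The genes and lists were chosen with earlier results of these data known. Of each list the text names genes that passed or, where there were none, the 2 largest differences in each direction, apart from CCNT2, genes named by role, and marker genes. The largest positive difference among the other fusion partners is not reported here. Tried as alternatives were quantile normalization run again, arrays centred on their medians, averaging of probe sets, leaving out dim genes (those with no value reaching the median over all genes), eBayes with an intensity trend or robust, and leaving out each line. Plots were made with Python 3.11.15 and matplotlib 3.10.9.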

Additional observations from a re-analysis of the deposited data

How the results depend on the processing

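None of the 10 genes passed the adjusted threshold under any alternative run. The sign of KMT2A and AFF1, both near 0, turned after repeated quantile normalization (-0.0394 and -0.0106) and with centred arrays (-0.0504 and -0.0212). For KMT2A it also turned with the average of its probe sets (-0.10), which includes the second one. None of the 10 was higher without overlap after repeated quantile normalization or centring or without dim genes (0 each, since MLLT3 was left out as dim or its margin closed). Lower without overlap were 3 of the 10 under both scalings, against 2 as reported, since DOT1L joined MEN1 and MLLT1. Over all genes, 4375 (quantile) and 4914 (centred) were lower without overlap, against 3638 as reported. The scalings moved the median of all genes to -0.02 (quantile) and -0.04 (centred), and SEM stayed the lowest line in 7 of 10 genes under both (25.03% and 30.4% of all genes), a count added after seeing the data. Over all genes, 9 passed after repeated quantile normalization and 17 without dim genes, against 4, and the cause of these changes was not tested. Without dim genes, where fewer genes were tested, 1048 had an unadjusted p under 0.05, and 2421 were higher and 2375 lower without overlap.

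Leaving out each line gave differences of -0.25 to 0.25 for KMT2A, -0.37 to 0.43 for AFF1, -0.28 to 0.0399 for PSIP1, -0.16 to 0.12 for ELL and -0.42 to 0.0029 for the second KMT2A probe set, so that their signs rest on single lines. The other 6 genes kept their sign, with AFF4 at 0.0114 to 0.185. Of the 10 genes, 1 to 5 were then higher and 2 to 7 lower without overlap. The 7 lower came without RS4;11, where SEM alone stood for its group and 6185 of the 18377 genes were lower. They are the same 7 genes in which SEM was the lowest line. The 5 higher came without SEM, where 7028 of the 18377 genes were higher. Over all genes, 0 passed in each case, with 1254 to 2585 at an unadjusted p under 0.05, and 6384 to 7821 were higher and 5616 to 6602 lower without overlap, since fewer lines had to be parted. These limma fits have 1 residual degree of freedom, and a lone line is taken to vary like the other group. No paired analysis was made, since the lines are separate and the labels name no pairing between them. Signal over background is unknown, which limits MLLT3 most.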
